A study of Homo sapiens with 6 samples.

Results

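The genes described here build the centromere and the kinetochore, the protein structure on each chromosome that grips spindle microtubules, or belong to the spindle checkpoint that watches over that grip. They were taken by symbol from a list of 44 genes, and all 44 were found once among the 78304 genes of the table. Poly(A) RNA was sequenced from Huh7 cells, a human liver cancer line, labelled wild type in both groups. Of 6 libraries, 3 came from cells given 16'-DEC for 24 h and 3 from cells given the solvent DMSO for the same time. The labels call the compound only 16'-DEC and state no dose. Replicates are not stated to be separate cultures, so p-values measure the spread between these libraries alone. Values are TPM, transcript abundance per length scaled to 1 sum in each library, so absolute depth is unknown and levels of different genes can be compared.

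As background, the histone variant CENP-A marks where a kinetochore forms, and loading factors renew it after each division. A constitutive network of CENP proteins (the CCAN) sits on it through the cell cycle and, in mitosis, recruits the KMN network (the KNL1, MIS12 and NDC80 complexes), whose NDC80 arm binds microtubules. Unattached kinetochores make the checkpoint signal that holds the cell before anaphase, and the chromosomal passenger complex, built around the kinase AURKB, releases faulty attachments. Many of these genes are transcribed mainly in late S, G2 and M phase. In bulk RNA, fewer cells in these phases and less RNA per cell cannot be told apart.

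Most of these transcripts were lower after 16'-DEC. The mean over the 6 libraries reached 1 TPM for 43 genes. Of these, 38 fell, 2 rose and 3 did not pass an adjusted p of 0.05, where 48.9% of all 14275 tested genes were called lower and 22.7% higher. Of the 43, 26 passed with a change of -1 or lower on the log2(TPM + 1) scale, against 23.7% of all tested genes. In 38 of the 43, every 16'-DEC library lay below every DMSO library, as did 51% of all tested genes. The median change of the 43 was -1.46 on the log2(TPM + 1) scale, on which -1 is about 2-fold lower for abundant genes, and that of all tested genes was -0.31. The summed level of the 44 genes was 568, 579 and 545 TPM with 16'-DEC, against 1314, 1313 and 1324 TPM in DMSO. CENPP, a CCAN subunit, was too low to be tested, with 0.359, 0.525 and 0.381 TPM in 16'-DEC libraries and 1.07, 1.12 and 1.2 TPM in DMSO libraries; the groups did not overlap.

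**Figure D1:**
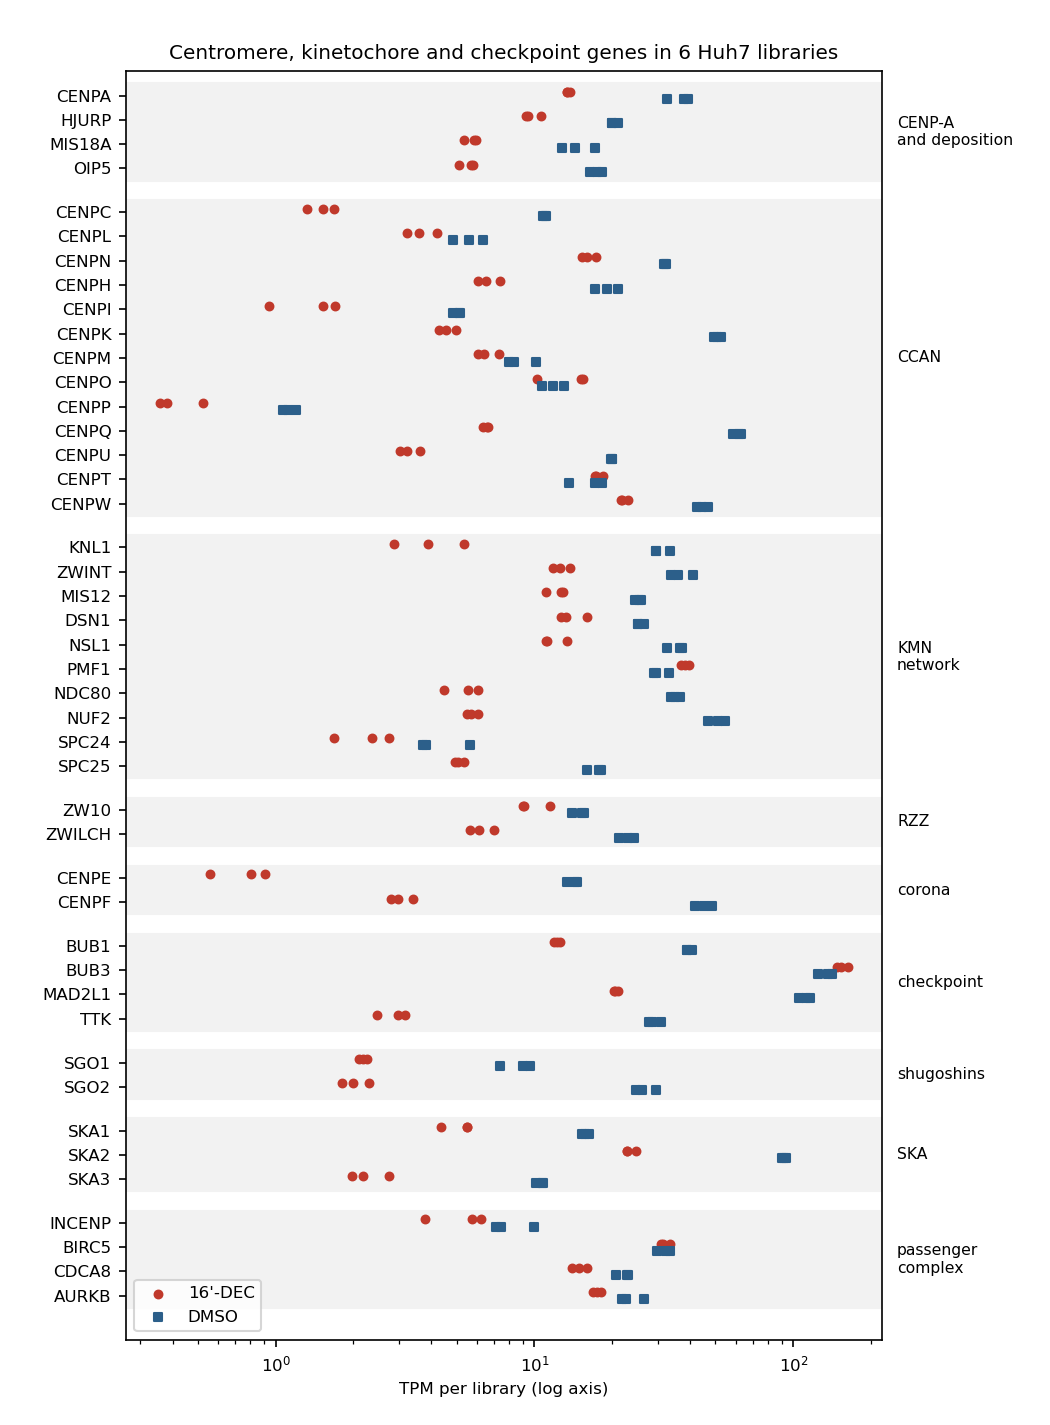
TPM of each of the 44 genes in every library on a log axis, by role; red circles are the 3 16'-DEC libraries and blue squares the 3 DMSO libraries. The red points lie left of the blue ones in nearly all rows, while BUB3 and PMF1 show the opposite order and CENPO, CENPT and BIRC5 overlap.

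The direction of change over all genes depends on scaling, and so do some of these calls. Scaling by the median of ratios raised the median of all tested genes by 0.29, and 5376 genes were then lower and 5290 higher, against 6974 lower and 3236 higher as deposited. Quantile normalization raised it by 0.41, with 4748 lower and 5990 higher. Of the 43 genes, 33 were lower under the first scaling and 31 under quantile normalization, and 5 were higher under each. Change also ran with the GC content of the transcript, as detailed after the single complexes. After an adjustment for GC content and length, 33 fell and 3 rose. Of all genes with a GC value, 31.7% were then lower and 34.5% higher. The median of the 43 was -0.73 after this adjustment, against 0.02 for all genes with a GC value. The part of GC content in these changes was not tested beyond this adjustment. The hepatocyte identity of the cells was plain in both groups: all 10 hepatocyte or hepatoma markers listed, ALB and AFP among them, were at 41.3 to 5221 TPM. Single markers differed between the groups in both directions. AFP was at 827 to 1043 TPM with 16'-DEC and 2510 to 2849 TPM in DMSO. APOA1 was at 1149 to 1287 TPM with 16'-DEC and 646 to 816 TPM in DMSO. Endothelial markers summed to 0.267 to 0.717 TPM with 16'-DEC and 0.186 to 0.526 TPM in DMSO, and fibroblast or stellate markers to 0.705 to 2.24 TPM with 16'-DEC and 1.56 to 2.51 TPM in DMSO. Leukocyte markers summed to 35.7 to 45.1 TPM with 16'-DEC and 16.7 to 18.9 TPM in DMSO, nearly all of it CD68, a lysosomal protein; CD3E was at 0 in all libraries and PTPRC at 0.003 to 1.167 TPM. The part of these markers in the results was not tested. Between 13131 and 13459 genes reached 1 TPM in 16'-DEC libraries and between 14936 and 15118 in DMSO libraries.

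Promoter sequences were read for the genes that RefSeq tables on GRCh38.p14 held, 36 of the 44, in 42 windows that run from 250 bases before to 50 bases after a transcription start. A motif known from cell-cycle promoters, the CHR (TTTGAA), was present in 40.5% of these windows and in 15.2% of all 35116 promoter windows of the table. The CCAAT box (CCAAT) was present in 71.4% and 34.6%, and E2F words (TTTCGCGC, TTTGGCGC, TTTCCCGC or TTTGGCGG) in 16.7% and 3.35%. Both strands were searched and overlapping matches counted. Matches are letters in a window and not shown binding, and the windows of all genes include silent ones. The 6 windows printed here were chosen as contrasting cases: both corona genes, the role with the lowest median change (-3.31), the NDC80 subunits SPC25 and SPC24, and CDCA8 and CENPT, with small changes. Capitals mark motif matches on either strand. CENPF has 4 CCAAT boxes and a CHR at position 41 after its start, while CENPE, which changed by -3.10 on the log2 scale, has none of the motifs. In SPC25 a CHR lies at -247 and another spans the start itself, from base -3, with CCAAT boxes at -88 and -56, whereas SPC24 has 3 CCAAT boxes and no CHR. In CDCA8 a CHR at -23 shares its last base with a CCAAT box at -18, and CENPT has no match. Genes with and without a TTTGAA match had similar medians. Of 16 with it 15 fell (median -1.46), and of 19 tested without it 17 fell (median -1.51). Only this exact word was searched for the CHR, and other forms of it were not counted. The part of the motif in these changes was not tested.
CENPF, chr1:214602945-214603244, plus strand: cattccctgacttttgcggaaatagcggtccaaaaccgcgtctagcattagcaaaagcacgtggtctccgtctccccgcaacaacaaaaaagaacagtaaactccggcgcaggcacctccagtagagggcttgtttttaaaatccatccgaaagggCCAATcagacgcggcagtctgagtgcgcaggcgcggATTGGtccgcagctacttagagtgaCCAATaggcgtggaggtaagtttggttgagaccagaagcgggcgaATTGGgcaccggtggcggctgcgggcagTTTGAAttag
CENPE, chr4:103198294-103198593, minus strand: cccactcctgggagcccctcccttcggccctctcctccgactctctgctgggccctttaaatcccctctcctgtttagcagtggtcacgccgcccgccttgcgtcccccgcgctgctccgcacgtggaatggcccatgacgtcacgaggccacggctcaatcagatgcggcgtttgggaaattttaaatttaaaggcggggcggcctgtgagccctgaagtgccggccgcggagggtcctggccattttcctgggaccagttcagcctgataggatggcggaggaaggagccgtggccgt
SPC25, chr2:168890381-168890680, minus strand: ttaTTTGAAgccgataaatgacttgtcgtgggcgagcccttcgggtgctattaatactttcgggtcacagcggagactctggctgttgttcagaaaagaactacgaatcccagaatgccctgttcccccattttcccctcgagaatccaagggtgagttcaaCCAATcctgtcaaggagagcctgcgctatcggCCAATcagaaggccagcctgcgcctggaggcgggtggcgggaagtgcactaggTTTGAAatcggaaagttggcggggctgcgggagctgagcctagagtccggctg
SPC24, chr19:11155733-11156032, minus strand: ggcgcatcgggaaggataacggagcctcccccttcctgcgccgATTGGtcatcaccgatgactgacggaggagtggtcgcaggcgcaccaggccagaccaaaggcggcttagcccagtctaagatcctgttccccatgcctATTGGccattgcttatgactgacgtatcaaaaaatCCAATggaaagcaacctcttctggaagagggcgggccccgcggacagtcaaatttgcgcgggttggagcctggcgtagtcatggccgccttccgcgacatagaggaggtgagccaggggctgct
CDCA8, chr1:37692266-37692565, plus strand: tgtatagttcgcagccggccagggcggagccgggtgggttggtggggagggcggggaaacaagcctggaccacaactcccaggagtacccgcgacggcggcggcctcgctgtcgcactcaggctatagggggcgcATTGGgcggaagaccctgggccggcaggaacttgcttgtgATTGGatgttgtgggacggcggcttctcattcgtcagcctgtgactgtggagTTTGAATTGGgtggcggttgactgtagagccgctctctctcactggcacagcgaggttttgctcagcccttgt
CENPT, chr16:67847644-67847943, minus strand: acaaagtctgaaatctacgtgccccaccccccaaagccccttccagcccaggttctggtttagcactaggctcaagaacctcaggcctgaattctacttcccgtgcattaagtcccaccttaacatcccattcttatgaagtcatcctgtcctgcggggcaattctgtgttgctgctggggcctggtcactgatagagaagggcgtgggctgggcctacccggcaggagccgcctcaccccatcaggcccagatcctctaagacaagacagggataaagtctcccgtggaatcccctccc

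Genes that build and maintain the CENP-A nucleosome all fell, 4 of 4, with a median change of -1.30. OIP5 (MIS18-beta), which helps to prime centromeres for new CENP-A, was at 5.1, 5.79 and 5.71 TPM with 16'-DEC and at 16.4, 18.2 and 17.5 TPM in DMSO. CENPA itself was at 13.4, 13.3 and 13.7 TPM with 16'-DEC, against 37.7, 39.2 and 32.5 TPM in DMSO. The treated libraries were close to each other and all below the controls. The changes were -1.49 ± 0.0912 for OIP5 and -1.37 ± 0.0906 for CENPA (± SE, adjusted p = 1.15e-06 and 1.83e-06). HJURP, the chaperone that deposits CENP-A, changed by -0.99, and MIS18A, the partner of OIP5, by -1.23. All 4 also passed after GC adjustment, at -1.22, -1.18, -0.78 and -0.67 for OIP5, CENPA, HJURP and MIS18A. Exons of OIP5 overlap OIP5-AS1 on the other strand and those of CENPA overlap SLC35F6 on the same strand. Reads on those bases cannot be assigned with certainty. For OIP5 the labels describe no strand marking, and for CENPA strand marking would not separate genes on the same strand.

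In the CCAN, 10 of the 12 genes tested fell and 2 missed the threshold; the median was -1.17. CENPK and CENPQ fell furthest. CENPK, of the CENP-H/I/K/M group (ENSG00000123219, chromosome 5, 65517766 to 65563171, GRCh38, GENCODE 29, as for all gene positions), was at 4.98, 4.26 and 4.57 TPM with 16'-DEC and at 52.3, 50.7 and 49.2 TPM in DMSO. CENPQ, a subunit of the CENP-O/P/Q/U group that binds microtubules (ENSG00000031691, chromosome 6, 49463378 to 49493107), was at 6.6, 6.58 and 6.31 TPM with 16'-DEC, against 61.9, 63 and 58.2 TPM in DMSO. In DMSO both were among the 5 most abundant of the 44 genes, and with 16'-DEC they ranked 31 and 22. Their changes were -3.21 ± 0.085 and -3.05 ± 0.0772 (adjusted p = 1.03e-07 for both), and -1.63 and -1.52 after GC adjustment.

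CENPU, which forms a pair with CENPQ and docks the mitotic kinase PLK1, changed by -2.29, and CENPC, the subunit that reads the CENP-A nucleosome and reaches out to the MIS12 complex, by -2.25. CENPH changed by -1.40 and CENPI by -1.35, though the GC-adjusted CENPI value of -0.28 missed the threshold (adjusted p = 0.0568). CENPN, which recognises CENP-A directly, changed by -0.94, and its partner CENPL by -0.49. CENPW, a small histone-fold protein, averaged 22 ± 0.745 TPM with 16'-DEC and 44.5 ± 2.1 TPM in DMSO (± SD, 3 libraries each), a change of -0.98. CENPL and CENPW turned direction after GC adjustment, to 0.32 (adjusted p = 0.0287) and 0.33 (adjusted p = 0.00101). The CENPL call was lost when the replicate number was added as a block to that adjustment (adjusted p = 0.0701). The GC content used for CENPW was 37.9%, and its coding transcripts run to 46.2%; the adjustment was not run with another transcript. CENPL did not pass with either rescaling, and was at 0.043 with quantile normalization. CENPM fell, with a change of -0.37 and an adjusted p of 0.0185. After GC adjustment it was at -0.66 (adjusted p = 7.04e-04). It was at 0.13 under quantile normalization and did not pass with either rescaling, without filter or without 16'-DEC replicate 1 or 2 or DMSO replicate 3 (adjusted p = 0.0669, 0.056 and 0.0801).

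CENPT and CENPO stood apart from the other CCAN genes in that their groups overlapped. CENPT, which links the CCAN directly to NDC80, was at 17.1, 17.3 and 18.4 TPM with 16'-DEC and at 13.6, 17.2 and 18.3 TPM in DMSO. CENPO was at 15.4, 15.1 and 10.2 TPM with 16'-DEC, against 10.7, 13 and 11.8 TPM in DMSO; the 10.2 TPM of 16'-DEC replicate 3 was the lowest of all. The changes of 0.11 (95% interval -0.15 to 0.36) and 0.17 (-0.18 to 0.52) did not pass, with adjusted p = 0.416 and 0.35. Without 16'-DEC replicate 3, CENPO passed as higher (0.35, adjusted p = 0.0137). Both passed as higher with median-of-ratios scaling and quantile normalization, and CENPT lay at -0.17 after GC adjustment and at -0.011 without DMSO replicate 1, without passing in either. CENPT shares exon bases with 3 genes on the other strand and CENPO with 2.

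In the KMN network 9 of 10 genes fell and 1 rose, with a median of -1.48. NUF2, which pairs with NDC80 to form the microtubule-binding head, was at 5.67, 5.49 and 6.05 TPM with 16'-DEC and at 51, 54.4 and 46.7 TPM in DMSO. KNL1, the scaffold on which checkpoint proteins gather, was at 5.33, 2.86 and 3.89 TPM with 16'-DEC, against 33.5, 29.6 and 29.5 TPM in DMSO. Both groups were far apart in each gene, although the treated libraries of KNL1 differed among themselves more than those of NUF2. NUF2 changed by -2.94 ± 0.0887 (adjusted p = 1.17e-07) and KNL1 by -2.69 ± 0.166 (adjusted p = 1.19e-06), and after GC adjustment by -1.74 and -1.21. NDC80 changed by -2.51, SPC25, which anchors the complex to the kinetochore, by -1.58, and ZWINT, a KNL1 partner, by -1.46. SPC24, the partner of SPC25 and the least abundant subunit, averaged 2.26 ± 0.544 TPM with 16'-DEC and 4.39 ± 1.1 TPM in DMSO. The change was -0.72 (adjusted p = 0.00566) and did not pass with quantile normalization (-0.19, adjusted p = 0.339). After GC adjustment SPC24 was at -0.82 (adjusted p = 0.00414).

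The MIS12 complex, which joins the CCAN to the rest of the KMN network, held genes of both directions. NSL1 fell, at -1.51, as did MIS12, at -0.98, and DSN1, at -0.84, while PMF1 rose. PMF1 (ENSG00000160783, chromosome 1, 156212993 to 156240042) was at 38.3, 36.7 and 39.6 TPM with 16'-DEC and at 28.9, 29.5 and 33.1 TPM in DMSO, and the groups did not overlap. Its change was 0.32 ± 0.0827 (adjusted p = 0.00751), but 0.11 after GC adjustment without passing (adjusted p = 0.138). MIS12 was at -0.023 after the same adjustment (adjusted p = 0.755), and NSL1 at -0.22 (adjusted p = 0.0341, and 0.0794 with the replicate block). Coding transcripts of NSL1 run to a GC content of 49.7%, against 38.0% for the one used. PMF1 shares exons with the read-through gene PMF1-BGLAP on the same strand, listed at 4, 3.32 and 2.85 TPM with 16'-DEC and at 2.19, 2.36 and 2.89 TPM in DMSO, so reads could be split between them.

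Of the RZZ complex, which brings dynein and checkpoint proteins to the kinetochore, both genes listed fell. ZWILCH was at 5.63, 6.99 and 6.08 TPM with 16'-DEC, against 24.3, 21.3 and 23 TPM in DMSO. ZW10 was at 9.14, 11.5 and 9.01 TPM with 16'-DEC and at 15.2, 13.9 and 15.6 TPM in DMSO. The groups lay apart in both genes. The changes were -1.72 ± 0.101 (adjusted p = 9.22e-07) and -0.55 ± 0.11 (adjusted p = 0.00172). After GC adjustment ZWILCH was at -0.29 (adjusted p = 0.0161) and ZW10 at 0.15 without passing (adjusted p = 0.132); ZW10 did not pass with either rescaling. ZWILCH overlaps exons of RPL4, a ribosomal protein gene, on the other strand.

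Both genes of the outer corona, the fibrous layer that catches microtubules, fell by more than 3 on the log2 scale. CENPE, the kinesin that carries chromosomes to the spindle equator (ENSG00000138778, chromosome 4, 103105806 to 103198409), was at 0.91, 0.803 and 0.559 TPM with 16'-DEC and at 14.6, 13.3 and 14.4 TPM in DMSO. CENPF was at 2.98, 2.79 and 3.38 TPM with 16'-DEC, against 41.7, 48.3 and 45.3 TPM in DMSO. On the TPM scale itself the DMSO mean was 18.6 times the treated mean for CENPE and 14.8 times for CENPF, where log2(TPM + 1) gave -3.10 ± 0.115 and -3.51 ± 0.0968: the added 1 shrinks the change of CENPE, which was below 1 TPM after treatment. After GC adjustment they were at -1.43 and -2.30. The order of the 2 genes rested on the pseudocount: with 1 or 5 TPM added the change of CENPF was the lower, and with 0.1 TPM added that of CENPE was.

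Among checkpoint genes 3 of 4 fell and 1 rose, with a median of -2.00. TTK (MPS1), the kinase that starts the checkpoint signal, was at 2.96, 3.17 and 2.46 TPM with 16'-DEC and at 30.7, 27.6 and 28.5 TPM in DMSO. MAD2L1 (MAD2), which is converted into the inhibitor of anaphase onset, was at 20.4, 21 and 20.2 TPM with 16'-DEC, against 116, 112 and 105 TPM in DMSO. In both the treated libraries lay close together and far below the controls. TTK changed by -2.96 ± 0.102 and MAD2L1 by -2.38 ± 0.0735 (adjusted p = 1.17e-07 for both), and by -1.49 and -1.04 after GC adjustment. BUB1, a kinase recruited to KNL1, changed by -1.61 (GC-adjusted -0.76).

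BUB3, the adaptor that carries BUB1 to KNL1, was the most abundant of the 44 genes in both groups and did not fall with the other checkpoint genes. It was at 153, 162 and 148 TPM with 16'-DEC and at 136, 125 and 141 TPM in DMSO, so every treated library was above every control. The change of 0.20 ± 0.0744 passed at an adjusted p of 0.0338 (ENSG00000154473, chromosome 10, 123154277 to 123170467). The call did not hold without 16'-DEC replicate 1 or 2 (adjusted p = 0.0768 and 0.111), without DMSO replicate 1 or 2 (0.0513 and 0.113), without the mean trend (0.0645) or without a filter on low values (0.0597). It was higher under both rescalings. After GC adjustment it was at 1.34, the highest value of the 43 genes. That adjustment, however, took a GC content of 41.4% and a length of 7828 bases from 1 annotated transcript. Coding transcripts of BUB3 run from 41.4% to 49.8% in GC content, and the adjustment was not run with another transcript.

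The shugoshins, which protect cohesion at centromeres, both fell. SGO2 was at 2, 2.29 and 1.8 TPM with 16'-DEC, against 26.1, 29.4 and 24.7 TPM in DMSO. SGO1 was at 2.18, 2.26 and 2.1 TPM with 16'-DEC and at 9.62, 7.35 and 9.05 TPM in DMSO. The 2 genes thus stood at about the same level after treatment, while SGO2 was the higher in DMSO. The changes were -3.19 ± 0.106 (adjusted p = 1.17e-07) and -1.60 ± 0.118 (adjusted p = 3.47e-06), or -1.53 and -0.54 after GC adjustment.

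All 3 genes of the SKA complex, which keeps kinetochores coupled to shrinking microtubules, fell. SKA2 was at 24.6, 22.8 and 22.7 TPM with 16'-DEC and at 94, 91.9 and 90 TPM in DMSO. SKA3 was at 2.74, 1.98 and 2.18 TPM with 16'-DEC, against 10.7, 10.8 and 10.1 TPM in DMSO. No library of SKA2 or SKA3 came near the other group. The changes were -1.93 ± 0.0722 for SKA2, -1.81 ± 0.113 for SKA3 and -1.46 ± 0.105 for SKA1, and after GC adjustment -0.55, -0.84 and -0.73, each of which passed. The GC content used for SKA2 was 37.4%, and its coding transcripts run to 45.6%.

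In the chromosomal passenger complex 3 of 4 genes fell, with changes of -0.57 to -0.41, and 1 did not pass. INCENP, the scaffold of the complex, was at 6.22, 5.72 and 3.79 TPM with 16'-DEC and at 7.45, 7.12 and 10 TPM in DMSO. CDCA8 (borealin), which helps to dock the complex on chromatin, was at 15.9, 14.8 and 14 TPM with 16'-DEC, against 20.6, 22.9 and 22.8 TPM in DMSO. The groups did not overlap in either gene, although INCENP varied within both. INCENP changed by -0.57 ± 0.179 (adjusted p = 0.0183) and CDCA8 by -0.54 ± 0.0876 (adjusted p = 4.86e-04). AURKB, the kinase of the complex, averaged 17.5 ± 0.643 TPM with 16'-DEC and 23.6 ± 2.57 TPM in DMSO, a change of -0.41 (adjusted p = 0.00393). These calls moved with scaling: INCENP and AURKB did not pass under either rescaling, CDCA8 did not with quantile normalization, and AURKB was then at 0.017. The INCENP call was also lost when DMSO replicate 3 was left out (adjusted p = 0.0706) and without a filter (0.0803). After GC adjustment all 3 passed, at -0.75, -0.54 and -0.64 for INCENP, CDCA8 and AURKB.

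BIRC5 (survivin), the fourth subunit and also known as an inhibitor of apoptosis (ENSG00000089685, chromosome 17, 78214186 to 78225636), was at 33.3, 31.4 and 30.8 TPM with 16'-DEC and at 32.1, 29.7 and 33.3 TPM in DMSO. The groups overlapped fully, and the change of 0.0086 had a 95% interval of -0.17 to 0.19 (adjusted p = 0.929). It was at -0.024 without 16'-DEC replicate 1 and -0.037 without DMSO replicate 2. With median-of-ratios scaling and quantile normalization BIRC5 passed as higher, by 0.35 and 0.36. After GC adjustment it was at 0.017. In DMSO it ranked 15 among the 44 genes by level, and with 16'-DEC it ranked 3, after BUB3 and PMF1.

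**Figure D2:**
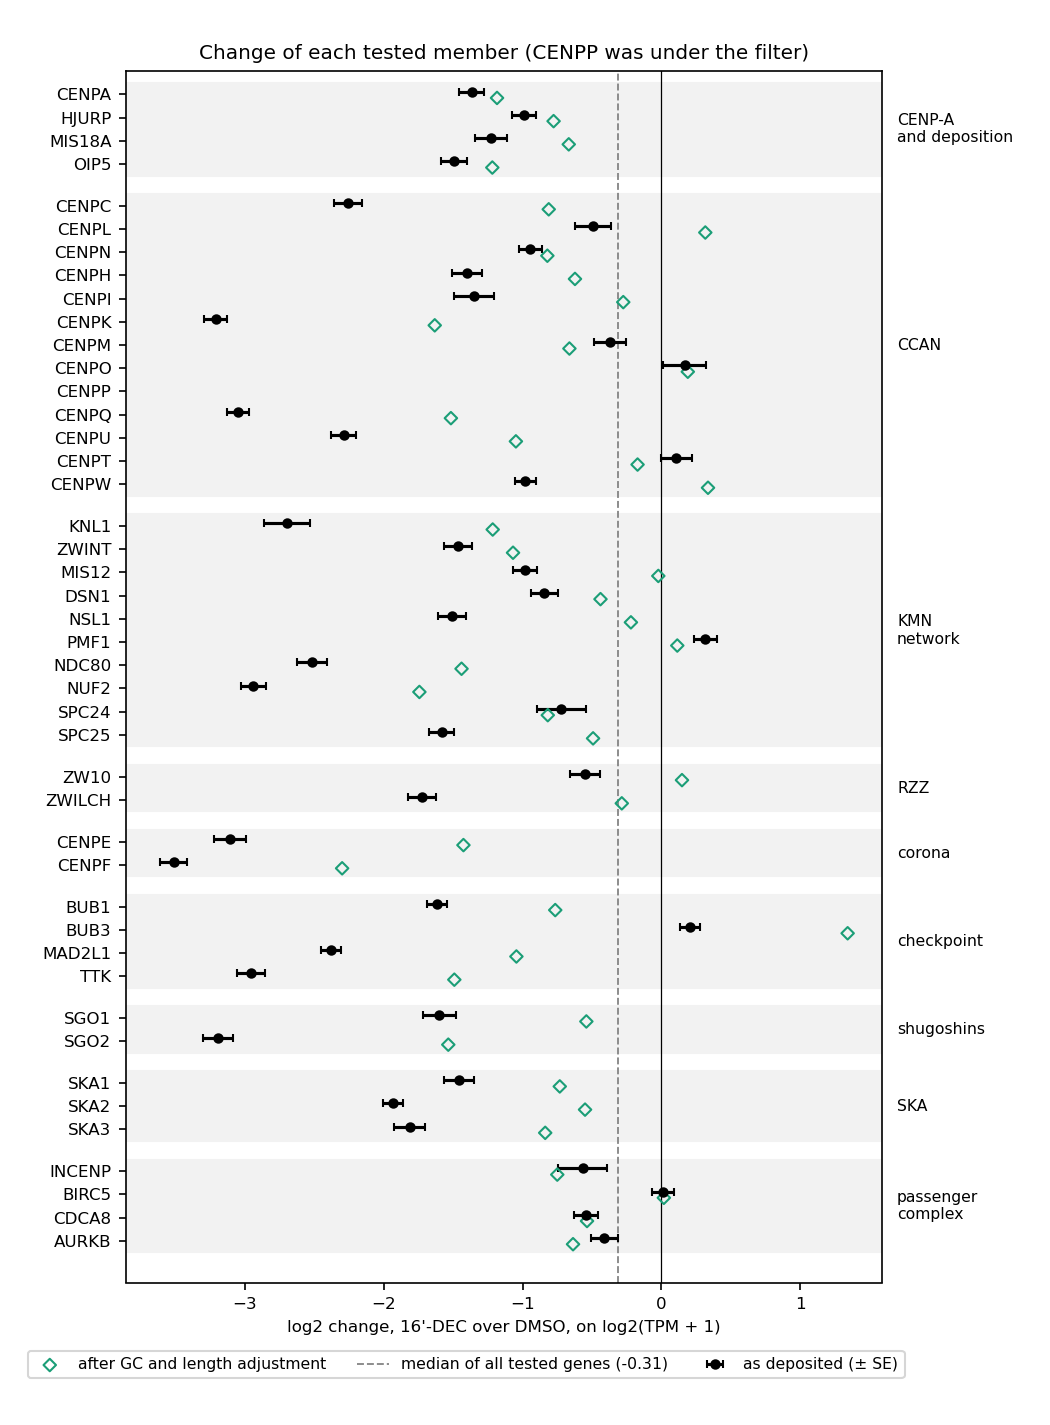
Change of each of the 43 tested genes, 16'-DEC over DMSO, on the log2(TPM + 1) scale. Black circles are values as deposited with their SE, green diamonds the values after GC and length adjustment, and the dashed line the median of all tested genes (-0.31). Most circles lie left of that line, and the diamonds of BUB3 (1.34) and CENPF (-2.30) are the extremes.

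Changes were larger in transcripts poorer in G and C. The median GC content of the 43 transcripts was 41.6%, against 49.1% for the 11401 tested protein-coding genes. Across the 43 genes, which share the 6 libraries, Spearman's rho between GC content and change was 0.81, and across all protein-coding genes it was 0.71. Below a GC content of 40% all 14 fell, with changes from -3.21 to -0.98 (median -2.53), where 95.4% of all protein-coding genes in that range fell and their median was -1.52. From 40% to 50%, 19 of 20 fell and the other, BUB3, rose (median -1.38, against a median of -0.62 and 67.7% lower among all such genes). At 50% or more, 5 of 9 fell and 1 rose (median -0.37, against 0.23 and 16.2% lower). INCENP, CENPM and SPC24, at 60.1%, 59.9% and 53.4%, fell where most genes of their range did not. Lengths went less with change. Across the 43, Spearman's rho was -0.36 for the coding sequence, -0.26 for the transcript and 0.068 for its 3' untranslated region. Across all tested protein-coding genes it was -0.23, -0.33 and -0.28 in the same order.

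**Figure D3:**
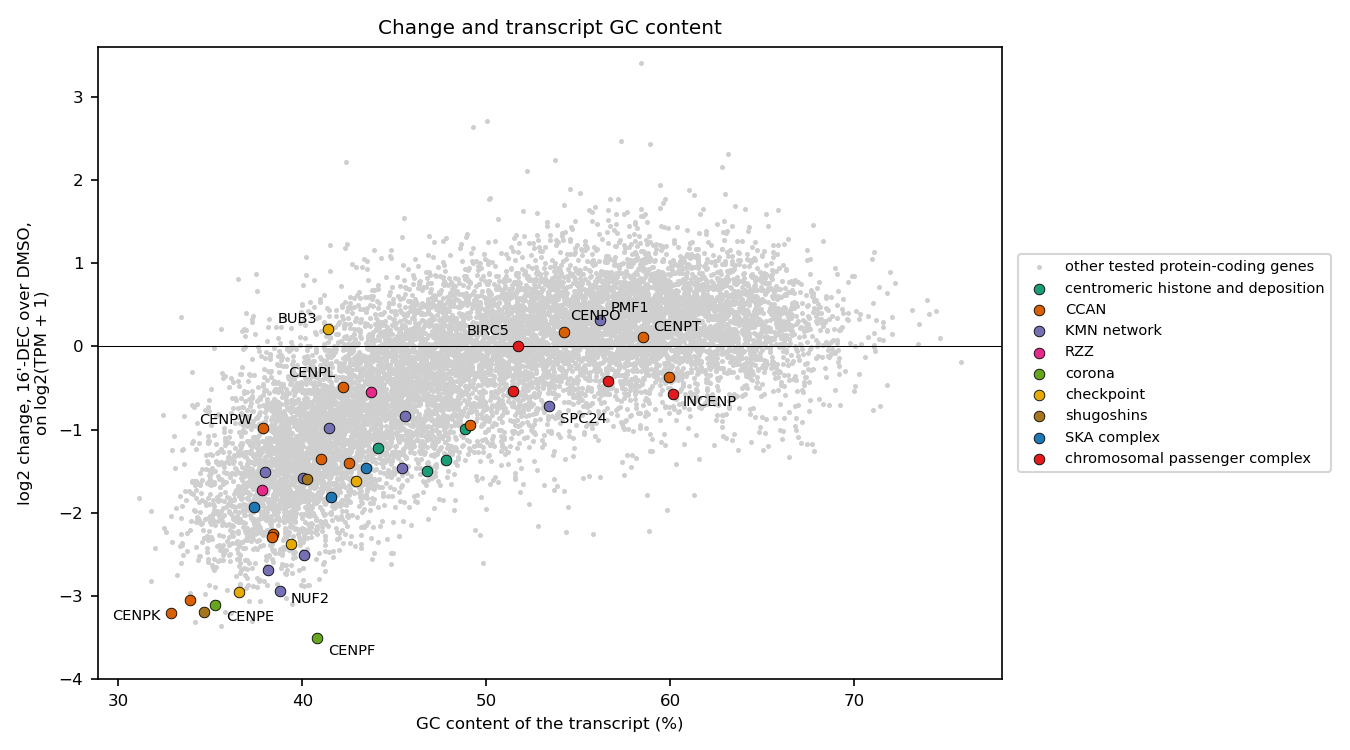
Change on the log2(TPM + 1) scale, 16'-DEC over DMSO, against the GC content of 1 transcript per gene. Grey points are all tested protein-coding genes and coloured points the 43 genes by role; the coloured points run from CENPK, at 32.9% and -3.21, to INCENP, at 60.1% and -0.57, mostly in the lower part of the grey cloud.

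Ratios between paired genes of the same complex or role, called partners here, were compared within each library. Scaling cancels there apart from the pseudocount. SGO2 to SGO1, CENPF to CENPE and HJURP to CENPA were paired by role and not as subunits of the same complex. A change that runs with GC content does not cancel. Of 21 pairs of partners, 17 had ratios that did not overlap between the groups, 8 higher and 9 lower with 16'-DEC. Among all 903 pairs that the 43 genes can form, 84.6% did not overlap, a share close to that of the partners. An exact permutation test over libraries gave p = 0.1 for each of the 17, the smallest that 3 against 3 allow, and 0.124 adjusted over the 21 pairs, so no pair could pass 0.05. In the NDC80 complex the log2 ratio of SPC25 to SPC24 was 0.92 ± 0.226 with 16'-DEC and 1.78 ± 0.241 in DMSO (± SD, 3 libraries each), whereas NUF2 to NDC80 overlapped between the groups, at 0.09 ± 0.244 with 16'-DEC and 0.52 ± 0.165 in DMSO. In the MIS12 complex PMF1 to NSL1 was 1.61 ± 0.191 with 16'-DEC and -0.21 ± 0.104 in DMSO, so PMF1 was the higher of the pair with 16'-DEC and the lower in DMSO. The DSN1 to MIS12 ratio differed by 0.14, and its groups missed each other by less than 0.01.

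BUB3 to BUB1 was 3.56 ± 0.0556 with 16'-DEC, against 1.74 ± 0.116 in DMSO. The ratio of SGO2 to SGO1 was -0.071 ± 0.0804 with 16'-DEC and 1.52 ± 0.294 in DMSO, and that of CENPK to CENPH was -0.44 ± 0.0921 with 16'-DEC and 1.37 ± 0.165 in DMSO. ZW10 to ZWILCH was 0.59 ± 0.0776 with 16'-DEC and -0.59 ± 0.056 in DMSO. In the passenger complex BIRC5 to CDCA8 was 1.05 ± 0.0319 with 16'-DEC and 0.50 ± 0.13 in DMSO, while AURKB to INCENP overlapped, at 1.59 ± 0.359 with 16'-DEC and 1.43 ± 0.107 in DMSO (exact permutation p = 0.7). The partners CENPF and CENPE, and OIP5 and MIS18A, overlapped as well (exact permutation p = 0.2 for both), and the difference of CENPF to CENPE, -0.40, was 0.22 with a pseudocount of 0.1. After GC adjustment the differences of SPC25 to SPC24, DSN1 to MIS12, CENPW to CENPT, CENPM to CENPI and SKA2 to SKA1 turned direction, to 0.33, -0.42, 0.51, -0.39 and 0.18. Other differences shrank: PMF1 to NSL1 went from 1.82 to 0.33 and ZW10 to ZWILCH from 1.17 to 0.43. CENPK to CENPH went from -1.81 to -1.01 and SGO2 to SGO1 from -1.59 to -0.99. That of BUB3 to BUB1 grew, from 1.82 to 2.10, a value that rests on the single BUB3 transcript used for the adjustment.

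**Figure D4:**
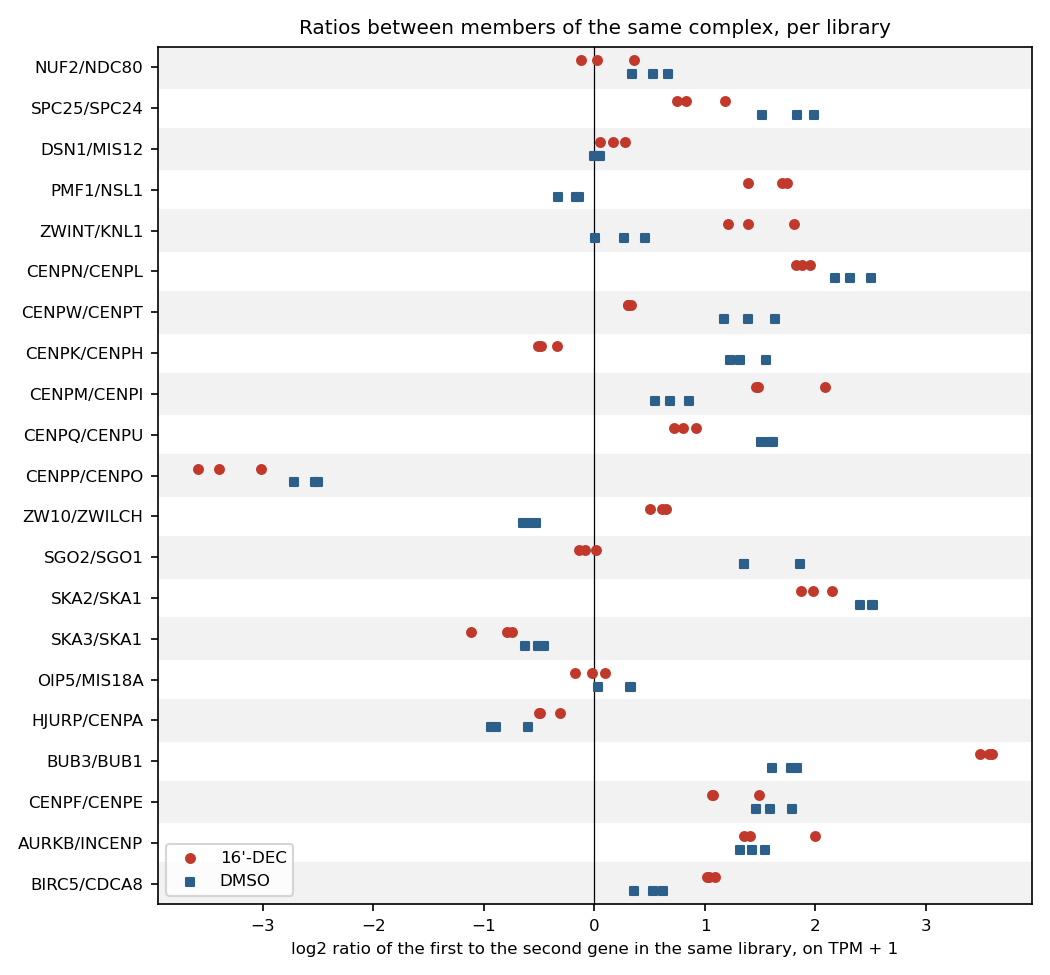
Log2 ratio of 2 partner genes in each library, on TPM + 1; red circles are the 3 16'-DEC libraries and blue squares the 3 DMSO libraries. PMF1/NSL1, BUB3/BUB1 and ZW10/ZWILCH lie further right with 16'-DEC and CENPK/CENPH and SGO2/SGO1 further left, while AURKB/INCENP overlaps.

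Of 23 further genes of the same structures, 22 were tested, of which 15 fell, 4 rose and 3 missed the threshold. Over all tested genes 48.9% were lower and 22.7% higher. The median of the 22 was -0.61, against -0.31 over all tested genes. After GC adjustment 12 were lower and 3 higher, where 31.7% of all genes with a GC value were lower and 34.5% higher. SPDL1 (spindly), the dynein adaptor that the RZZ complex recruits, averaged 3.05 ± 0.766 TPM with 16'-DEC and 24.3 ± 1.78 TPM in DMSO, a change of -2.66 ± 0.138 (adjusted p = 4.99e-07). In the other direction NDE1, a dynein regulator that also acts outside mitosis, averaged 133 ± 19.6 TPM with 16'-DEC and 72 ± 3.72 TPM in DMSO, a change of 0.86 ± 0.109 (adjusted p = 1.02e-04). CENPX, a CCAN subunit with a further role in DNA repair, averaged 46.7 ± 1.35 TPM with 16'-DEC and 31.4 ± 4.89 TPM in DMSO, a change of 0.57 ± 0.109 (adjusted p = 0.00137). After GC adjustment SPDL1 was at -1.54, NDE1 at 0.94 and CENPX at 0.27.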

How the data were processed

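The authors deposited 1 table of TPM values for 78304 genes and 6 libraries (16'-DEC and DMSO, 3 each), scaled to the same sum in each library. Per the submitters' processing notes, the build was GRCh38 and the tools were DESeq2, HTSeq 0.6.1, HISAT2 2.0.1 and cutadapt 1.9.1, with no role or order; their annotation, gene lengths and strand setting are not stated. Each value is relative to its library's total, so depth is unknown and a rise of abundant genes lowers the rest. Libraries were grouped by title. Among genes at 1 TPM or more, at most 0.069% of values were identical between any pair of libraries.

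The 14275 genes whose mean reached 1 TPM were tested with limma 3.58.1 (R 4.3.3) on log2(TPM + 1), 2-sided, by eBayes with trend and Benjamini-Hochberg adjustment over all of them and a threshold of 0.05; a fold change on this scale understates low genes. The fit was tested on simulated normal values in which few genes changed, equally up and down. In these data most tested genes passed, so that test does not measure the error of the calls here. The gene list, roles, pairs and further genes were chosen with earlier results of these data known. Values in every library are given for the 2 largest changes per role, members passing against their role's majority and up to 2 that did not pass; of the further genes, the 2 largest changes each way were to be named, of which 1 is not reported here. GC content and length were read from GENCODE 29 transcripts (1 transcript per gene: APPRIS principal, basic, then longest), matched by identifier for 93.1% of tested genes. For the adjustment, each library's deviations from the gene means were fitted by natural splines of GC content and of log2 length (5 degrees of freedom per spline), and the fit was subtracted, which also re-centres a library. Of the 44 genes, 17 share exon bases with another gene. Promoters are from RefSeq (GRCh38.p14). Ratios were tested with an exact permutation test in scipy 1.17.1; figures used matplotlib 3.10.9. Alternatives were other pseudocounts, filters, scalings, the adjustment, the replicate number as a block, no mean trend, a 0.01 threshold and the omission of single libraries.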

Additional observations from a re-analysis of the deposited data

How the results depend on the processing

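Of the 43 genes, 27 kept their direction and their side of the threshold under each of the 17 alternatives that tested them. The number lower ran from 31 with quantile normalization to 38, and from 36 to 38 without 1 library. The number higher was 5 under quantile normalization and 5 under median-of-ratios scaling, 1 without a filter, without the mean trend and at a threshold of 0.01, and 1 to 3 without 1 library. Their median was -1.13 under median-of-ratios scaling, -0.97 under quantile normalization, -0.73 after GC adjustment, -1.58 and -1.05 with pseudocounts of 0.1 and 5, and -1.47 to -1.38 without 1 library. Over all genes, 5290 were higher under median-of-ratios scaling and 5990 under quantile normalization, and 4213 were lower after GC adjustment. The following turned direction: CENPL (0.32), CENPT (-0.17), CENPW (0.33) and ZW10 (0.15) after GC adjustment; CENPL (0.043), CENPM (0.13) and AURKB (0.017) with quantile normalization; BIRC5 without 16'-DEC replicate 1 (-0.024) and DMSO replicate 2 (-0.037), its range without 1 library reaching 0.044; and CENPT without DMSO replicate 1 (-0.011), with a range up to 0.19. Of the ratios, SPC25/SPC24 (0.33), DSN1/MIS12 (-0.42), CENPW/CENPT (0.51), CENPM/CENPI (-0.39) and SKA2/SKA1 (0.18) did so after GC adjustment. Of those whose groups overlapped, CENPF/CENPE turned with a pseudocount of 0.1 (0.22) and AURKB/INCENP without 16'-DEC replicate 3. The cause was not tested. Between 15 and 19 pairs did not overlap under the alternatives; CENPP/CENPO had no GC-adjusted value.

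Same-numbered libraries did not deviate together (r = 0.0941, -0.182 and -0.0726), so the numbers were not taken as pairs. With the replicate number as a block 38 genes were lower and 1 higher, BUB3 no longer passing (adjusted p = 0.0851). With the block and GC adjustment together 3982 of all genes were lower, and of the members 32 were lower and 2 higher, with a median of -0.73 and the calls of CENPL (adjusted p = 0.0701) and NSL1 (0.0794) lost; CENPL (0.32), CENPT (-0.17), CENPW (0.33) and ZW10 (0.15) again turned.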

Other observations

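Loci named after these genes were also in the table. Of 9 pseudogenes, such as BUB3P1 and SGO1P1, 8 were listed at 0 in all 6 libraries, and the highest value of the other, CENPCP1, was 0.035 TPM. The antisense gene OIP5-AS1 was at 28.4, 28.6 and 28 TPM with 16'-DEC and at 53.8, 54.8 and 48.2 TPM in DMSO. The groups did not overlap, as for OIP5, whose exons it meets; without strand information its level and that of OIP5 cannot be fully separated. MIS18A-AS1 was at 0.216 to 0.246 TPM with 16'-DEC and 0.347 to 0.643 TPM in DMSO.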
